A study of Arabidopsis thaliana with 2 samples.

Results

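The open chromatin around 10 genes of the gibberellin pathway of *Arabidopsis thaliana* is described. They were chosen by gene identifier under a rule that used no measured value, although earlier results of these data were known. They include the biosynthesis genes GA20ox1 (AT4G25420), GA20ox2 (AT5G51810), GA3ox1 (AT1G15550) and GA3ox2 (AT1G80340), and the inactivation gene GA2ox1 (AT1G78440). The others are the DELLA genes GAI (AT1G14920), RGA (AT2G01570), RGL1 (AT1G66350), RGL2 (AT3G03450) and RGL3 (AT5G17490). The 10 are among the 27444 protein-coding genes annotated on chromosomes 1 to 5, and all 10 were found in the annotation. The measurements come from MH-seq, in which cross-linked nuclei are digested lightly with micrococcal nuclease (MNase) and the small fragments, below 100 bp, are sequenced. A region enriched in such fragments is an MNase hypersensitive site (MHS). Both libraries, replicate 1 and replicate 2, were made from whole seedlings of the ecotype Columbia (Col-0), 2 weeks old, and form 1 group with no treatment and no mutant. Whole seedlings mix many cell types, so an MHS does not say in which cells the site was open. The deposited lists hold positions only, so the identity of the tissue could not be checked against marker genes and the reads behind a single MHS are unknown.

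Gibberellins are growth hormones that promote germination, stem elongation and flowering. Late in their synthesis, GA20-oxidases and then GA3-oxidases turn inactive precursors into the bioactive forms, and GA2-oxidases inactivate them by hydroxylation. DELLA proteins are nuclear repressors of gibberellin responses, and the hormone, bound by its GID1 receptors, leads to their destruction through an F-box protein. Transcripts of several biosynthesis genes are known to fall, and those of GA2-oxidase genes to rise, when gibberellin is plentiful.

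For each gene, the MHSs were taken that overlapped a window from 3 kb upstream of the transcription start site (TSS) to 1 kb past the end of the transcript. All coordinates are on TAIR10, and positions relative to a gene count from its TSS in the direction of transcription. Replicate 1 listed 70046 MHSs genome-wide, covering 11.7% of the chromosomes, and replicate 2 listed 49934, covering 9.26%. For the second library the study's text gives fewer peaks than the list used here holds MHSs. The windows of the 10 genes held 81 MHSs of replicate 1 and 67 of replicate 2. Per gene the median was 8 (range 5 to 12) in replicate 1, while the median of all protein-coding genes was 4. In replicate 2 the median of the 10 genes was 6.5 (range 4 to 10), while that of all protein-coding genes was 3. MHSs covered a median of 1468.5 bp of a member's window in replicate 1 and 1084 bp in replicate 2, and the medians of all protein-coding genes were 735 and 597 bp. Window lengths were alike, with medians of 6018.5 bp for the 10 genes and 6078 bp for all genes. The 10 genes thus lay above the median of all genes in both libraries, with no test made.

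**Figure D1:**
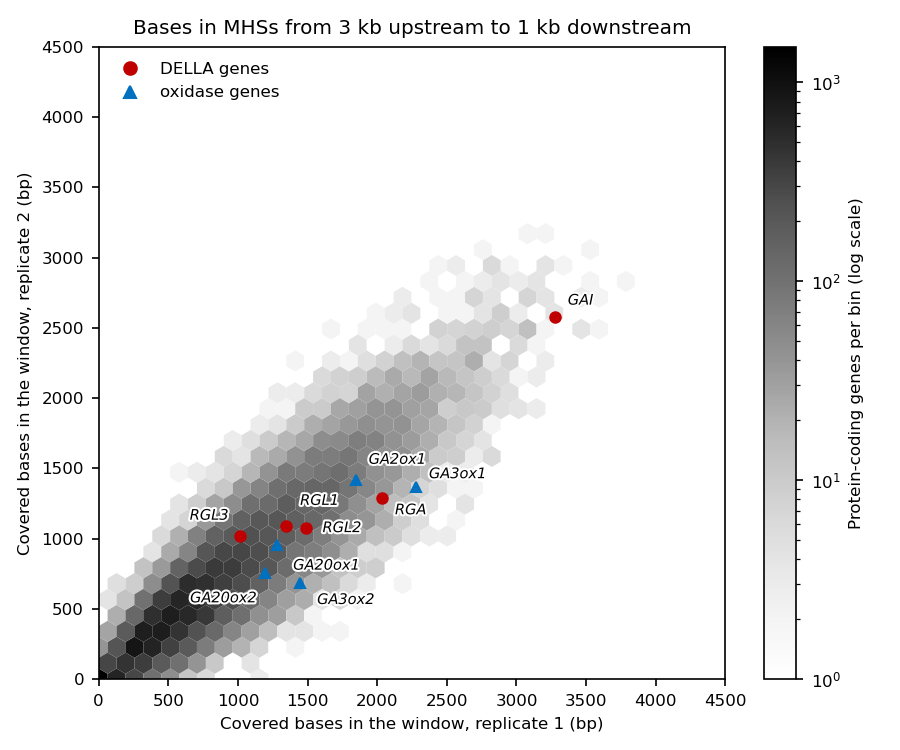
Bases covered by MHSs in each gene's window in replicate 1 (x axis, bp) against replicate 2 (y axis, bp). The grey bins count the 27444 protein-coding genes (log scale), red circles are the 5 DELLA genes and blue triangles the 5 oxidase genes, and of the 10 GAI lies farthest out, at 3279 bp in replicate 1 and 2577 bp in replicate 2. The few genes beyond the ends of the axes are not drawn.

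A pair of MHSs, 1 from each replicate and overlapping by at least 1 bp, was found within 1 kb upstream of the TSS in all 10 genes, while 70.4% of all protein-coding genes had such a pair. Within 200 bp upstream, 7 of the 10 had a pair, against 58.2% of all genes. The exceptions were GA3ox2, GA2ox1 and GAI. The bases covered in those 200 bp had medians of 122.5 bp in replicate 1 and 44 bp in replicate 2, against 118 and 73 bp over all genes. Over the 1 kb upstream the medians were 286.5 and 169 bp, against 220 and 174 bp. In replicate 2 the promoters of the 10 were thus covered no more than those of all genes. A pair in which both MHSs lay over the TSS itself was found in 5 of the 10 (GA20ox1, GA20ox2, GA3ox1, RGL1 and RGL3), close to the 46.6% of all genes. Within 1 kb past the end of the transcript, 9 of the 10 had a pair, against 43.9% of all genes, and GA3ox2 was the exception. Some of these pairs barely reached that stretch: replicate 2 covered 2 bp of it at GA20ox1 and 38 bp at RGL3. The pair of RGL2 had its midpoints in the neighbouring gene AT3G03440. A pair with both midpoints in coding sequence was found in 5 of the 10 genes (GA3ox2, GA2ox1, RGL1, RGL2 and RGL3), against 3.68% of all protein-coding genes. The median coding length was 1336.5 bp in the 10 genes and 1047 bp in all genes. With 10 genes chosen by name, these counts describe the genes and were not tested.

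**Figure D2:**
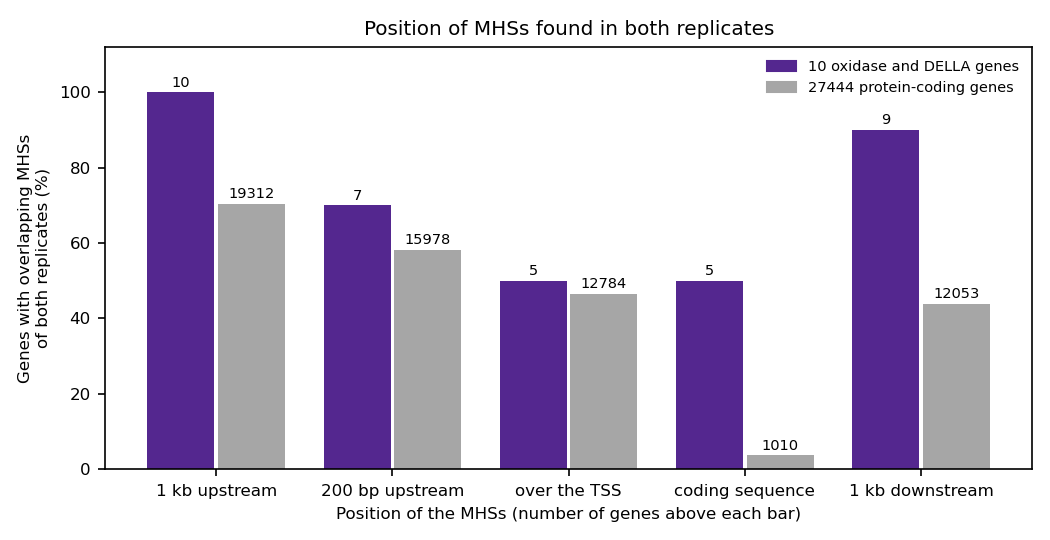
Share of genes (%) that have overlapping MHSs of both replicates at each position relative to the gene, for the 10 oxidase and DELLA genes (purple) and all 27444 protein-coding genes (grey), with the number of genes above each bar. At the coding sequence the bars stand for 5 of 10 genes against 1010 of 27444, and over the TSS they are nearly level.

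By the position of their midpoint, 39 of the 81 MHSs of replicate 1 lay upstream, 8 in a 5′ UTR, 5 in coding sequence, 5 in an intron, 4 in a 3′ UTR and 20 downstream. The 67 MHSs of replicate 2 fell as 30, 8, 6, 4, 5 and 14 in the same order of features.

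Among the oxidase genes, GA20ox1, whose enzyme acts widely in stem growth, gave the same picture in both libraries. On the minus strand of chromosome 4 (12990851 to 12992585), it had 5 MHSs in replicate 1 and 6 in replicate 2, and every one of them overlapped the other replicate. The MHS over the TSS ran from 145 bp upstream to base 163 of the gene in replicate 1 (308 bp) and from 43 bp upstream to base 184 in replicate 2 (227 bp), thus ending just before and just after the start codon at base 177. Farther upstream, a 334-bp MHS of replicate 1, 2306 to 1973 bp from the TSS, shared 291 bp with a 333-bp MHS of replicate 2. A 391-bp MHS of replicate 1 that lay 1365 to 975 bp upstream was matched by 2 shorter ones of replicate 2, of 113 and 130 bp, both wholly inside it. In an intron, MHSs of 193 bp in replicate 1 and 152 bp in replicate 2 shared 143 bp. Past the gene, MHSs of 372 bp in replicate 1 and 308 bp in replicate 2 shared 308 bp and reached the window with 51 and 2 bp.

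GA20ox2, which acts together with GA20ox1 in flowering and growth, lies on the minus strand of chromosome 5 (21055179 to 21056881) and had 5 MHSs in each library. Its MHS over the TSS was nearly the same in both: 153 bp from 44 bp upstream to base 109 in replicate 1, and 153 bp from 46 bp upstream to base 107 in replicate 2, with 151 bp shared. Upstream, 2 MHSs of replicate 1 (216 and 213 bp) stood end to end from 1110 to 679 bp before the TSS, and each held 1 shorter MHS of replicate 2 (104 and 101 bp). Past the gene, a 498-bp MHS of replicate 1 held 2 MHSs of replicate 2, of 111 and 285 bp. A 115-bp MHS in an intron was found in replicate 1 only.

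For GA20ox1 and GA20ox2, the following are the stretches, common to both libraries, of the MHS that was longest in replicate 1 among those wholly upstream and found in both. For GA20ox1 this is not the longest shared stretch, which lay in the pair farther upstream. They are shown because both genes carried such an MHS about 1 kb before the TSS. All stretches printed here are reference sequence of TAIR10.1 in RefSeq, read 5′ to 3′ along the strand of the gene, with any match to the motifs searched in capitals.
GA20ox1 upstream, chr4:12993601-12993730, minus strand: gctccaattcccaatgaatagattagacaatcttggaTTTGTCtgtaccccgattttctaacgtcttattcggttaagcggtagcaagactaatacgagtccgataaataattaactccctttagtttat
GA20ox2 upstream, chr5:21057863-21057966, minus strand: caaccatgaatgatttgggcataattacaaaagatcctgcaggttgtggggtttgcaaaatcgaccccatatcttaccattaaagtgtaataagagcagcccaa

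The motifs searched, on both strands, were the G-box CACGTG, the core TTTGTC of INDETERMINATE DOMAIN (IDD) proteins, the gibberellin response element TAACAAA, the RY core CATGCA, the W-box TTGACC, the telo-box AAACCCTA, the GAGA repeat GAGAGAGA, the evening element AAATATCT and the TATA box TATAAA. None is contained in another, although matches can overlap. The capitals in the GA20ox1 stretch are TTTGTC, which 11.1% of genes hold in the window at the same distance from their TSS. IDD proteins are known to work with DELLA proteins at gibberellin biosynthesis genes. The GA20ox2 stretch held no match. A match describes the letters only, and binding was not measured.

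GA3ox1, which with GA3ox2 carries out the last step to bioactive gibberellin in seeds and seedlings, differed more between the libraries. It lies on the minus strand of chromosome 1 (5344388 to 5346342) and had 12 MHSs in replicate 1 and 7 in replicate 2. The TSS was covered in both, from 79 bp upstream to base 216 in replicate 1 (295 bp) and from 44 bp upstream to base 169 in replicate 2 (213 bp, wholly inside). Both libraries also had MHSs in the intron and at the end of the gene, where a 231-bp MHS of replicate 1 lay wholly inside a 318-bp MHS of replicate 2. One more pair past the gene shared 182 bp, and the MHS of replicate 1 had its midpoint in the neighbouring gene AT1G15540. Upstream of the MHS over the TSS and up to 1 kb from the TSS, only replicate 1 had MHSs, of 131 bp (657 to 527 bp upstream), 60 bp (421 to 362 bp) and 74 bp (292 to 219 bp). Farther upstream, 4 MHSs of replicate 1 and 2 of replicate 2 were listed, of which 1 pair overlapped, with 338 bp in replicate 1 and 220 bp in replicate 2. Those of replicate 1 without a partner were of 78, 213 and 124 bp, and the 103-bp MHS that only replicate 2 had there lay 13 bp from the nearest MHS of replicate 1. Of the bases covered in either library, 39.3% were covered in both, against a median of 56.3% over all protein-coding genes.

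GA3ox2 showed the greatest gap in number between the libraries, with 12 MHSs in replicate 1 and 4 in replicate 2. It lies on the minus strand of chromosome 1 (30200466 to 30202349). All 4 MHSs of replicate 2 overlapped replicate 1, but 8 of the 12 of replicate 1 had no partner, and 8 of the 12 were at most 100 bp long. Those without a partner measured 59 to 149 bp, 5 of them upstream, 1 in the 3′ UTR and 2 downstream. Neither library had an MHS within 200 bp upstream of the TSS. The nearest pair upstream was 83 bp long in replicate 1, 724 to 642 bp before the TSS, and 106 bp long in replicate 2. A second pair upstream, 2385 to 2295 bp before the TSS in replicate 1, had 91 bp in replicate 1 and 117 bp in replicate 2. Inside the gene, an intron pair of 284 bp (replicate 1) and 118 bp (replicate 2) was followed by a pair that reached from the intron into the coding sequence of the last exon. That pair measured 288 bp, from base 1015 to 1302, in replicate 1 and 342 bp, from base 986 to 1327, in replicate 2. The largest shared MHSs of GA3ox2 thus lay inside the gene, and its promoter held only short ones.

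The upstream stretches of GA3ox1 and GA3ox2, chosen in the same way, are printed because the 2 genes encode enzymes of the same step.
GA3ox1 upstream, chr1:5348037-5348256, minus strand: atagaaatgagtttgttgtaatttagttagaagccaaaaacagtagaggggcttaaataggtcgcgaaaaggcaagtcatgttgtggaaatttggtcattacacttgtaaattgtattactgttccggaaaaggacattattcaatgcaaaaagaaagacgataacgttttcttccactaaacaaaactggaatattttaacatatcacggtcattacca
GA3ox2 upstream, chr1:30204644-30204734, minus strand: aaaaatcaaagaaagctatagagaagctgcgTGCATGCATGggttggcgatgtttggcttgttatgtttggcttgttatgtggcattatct

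The GA3ox1 stretch held none of the motifs. In the GA3ox2 stretch the capitals are 3 overlapping matches of the RY core CATGCA, the element bound by B3 proteins of seed development. Of all genes, 3.72% hold at least 1 RY core in the window of the same length and distance.

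GA2ox1, which inactivates gibberellins, had 9 MHSs in replicate 1 and 10 in replicate 2 on the minus strand of chromosome 1 (29511561 to 29513100), and 8 of the 9 and 9 of the 10 overlapped. Its largest open regions lay far from the promoter. One MHS of 863 bp in replicate 1 ran from 3474 to 2612 bp upstream and held 2 MHSs of replicate 2, of 420 and 151 bp. It was the longest MHS that reached any of the 10 windows, and part of it lay beyond the 3 kb limit of the window. Between 2254 and 1082 bp upstream, replicate 1 had MHSs of 248, 133 and 369 bp, and replicate 2 had MHSs of 121, 110 and 211 bp, all of them overlapping between the libraries. Near the gene the MHSs were shorter. A 54-bp MHS of replicate 1, 374 to 321 bp upstream, lay inside a 146-bp MHS of replicate 2, and the only MHS that reached the last 200 bp before the TSS, 78 bp in replicate 1, had no partner. Nor had a 108-bp MHS of replicate 2, 530 to 423 bp upstream. At the start codon (base 111), MHSs of 81 bp in replicate 1 (base 109 to 189) and 110 bp in replicate 2 (base 87 to 196) overlapped. Past the gene, 285 and 212 bp of replicate 1 stood beside 88 and 233 bp of replicate 2, again all overlapping.

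The central 300 bp of the far upstream region of GA2ox1 are printed because it was the longest stretch of open chromatin around an oxidase gene.
GA2ox1 upstream, chr1:29516025-29516324, minus strand: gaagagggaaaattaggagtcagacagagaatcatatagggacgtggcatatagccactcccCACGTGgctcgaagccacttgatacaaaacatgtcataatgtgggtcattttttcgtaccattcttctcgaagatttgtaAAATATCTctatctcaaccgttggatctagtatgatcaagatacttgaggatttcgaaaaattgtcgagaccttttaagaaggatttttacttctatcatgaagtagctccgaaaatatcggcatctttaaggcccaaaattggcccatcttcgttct

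It held 1 G-box, 3162 to 3157 bp upstream, and 1 evening element that began 3082 bp upstream. Both matches lay outside the 3 kb window, as did most of the stretch. The G-box is bound by basic helix-loop-helix proteins such as the PIFs, which DELLA proteins are known to hold off DNA, and by bZIP proteins. The evening element is bound by the clock proteins CCA1 and LHY. At the same distance, 3.56% of genes hold a G-box and 3.81% an evening element.

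**Figure D3:**
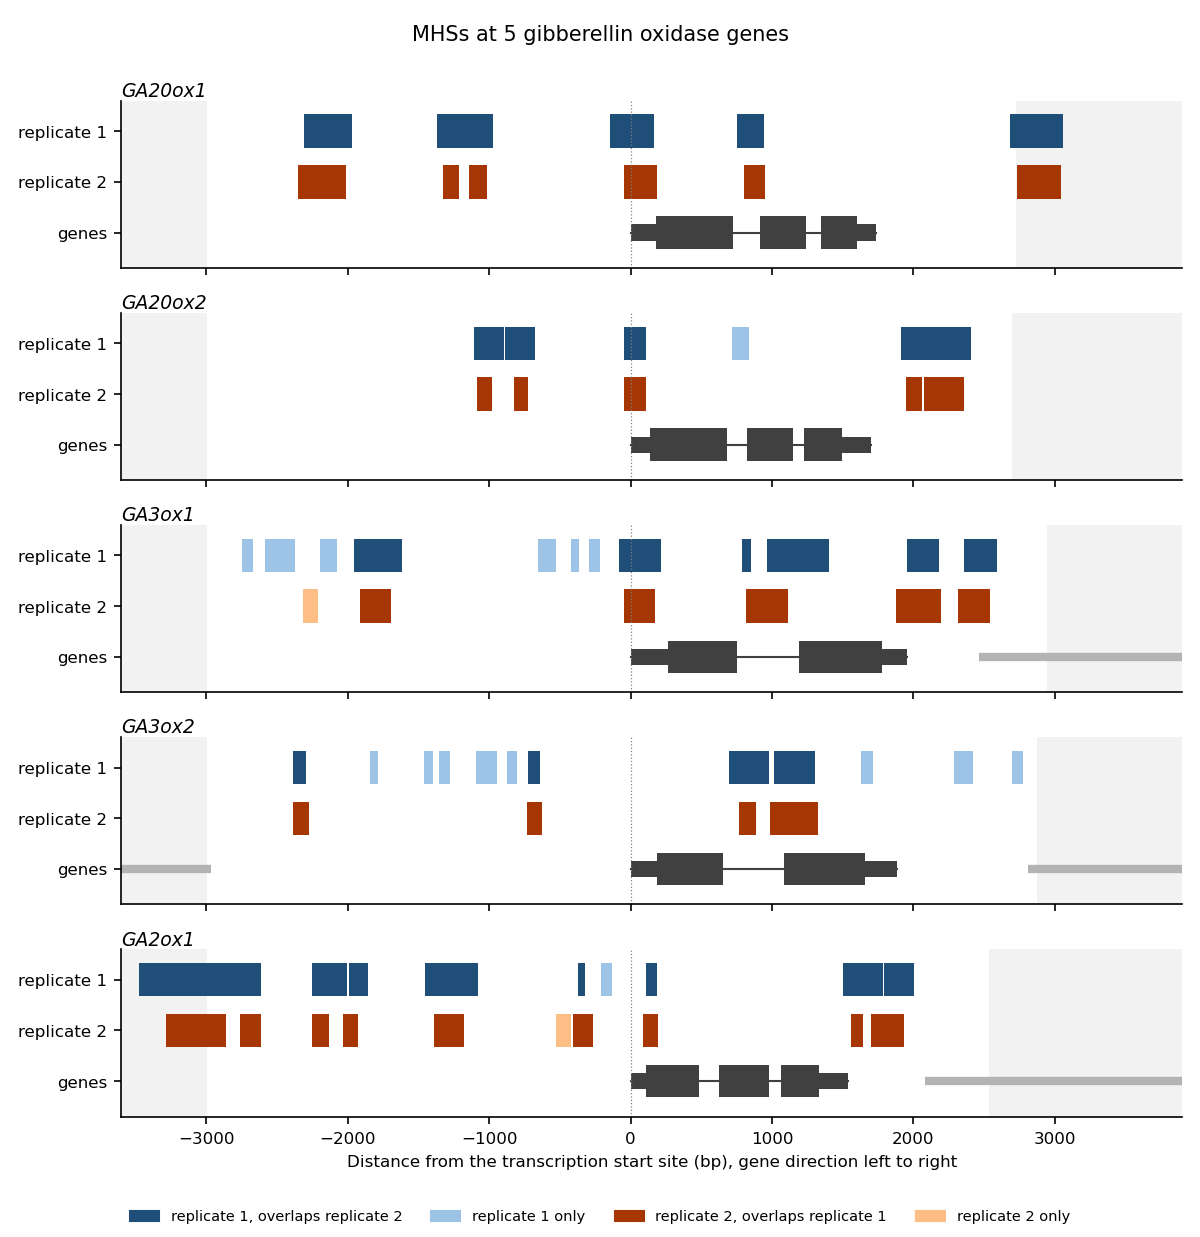
MHSs of replicate 1 (blue, upper row) and replicate 2 (orange, middle row) at the 5 oxidase genes, by distance from the TSS (bp). Dark boxes overlap the other replicate and light boxes do not, the lowest row shows the gene (thick boxes coding sequence, thin boxes UTRs, lines introns) and its neighbours (grey), and the shaded margins lie outside the window. GA20ox1 has dark boxes only, while 8 of the 12 replicate 1 boxes of GA3ox2 are light.

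GAI, the DELLA gene whose gain-of-function allele makes dwarf plants, had by far the most open chromatin of the 10. On the plus strand of chromosome 1 (5148982 to 5151415) it had 7 MHSs in replicate 1 and 10 in replicate 2, which covered 3279 bp and 2577 bp of its window. Of all protein-coding genes, 0.211% had as much or more in replicate 1 and 0.532% in replicate 2. From 2400 bp upstream to base 378, replicate 1 had an almost unbroken row of 6 MHSs, of 236, 421, 349, 530, 422 and 599 bp. Replicate 2 had 7 over the same stretch, most of them shorter, of 181, 447, 99, 424, 159, 173 and 106 bp. In the 1 kb before the TSS, 963 bp were covered in replicate 1 and 438 bp in replicate 2.

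Over the TSS of GAI the libraries differed. The 599-bp MHS of replicate 1 ran from 221 bp upstream to base 378, whereas both MHSs of replicate 2 inside it began past the TSS, at base 75 and base 262. All 200 bp before the TSS were therefore covered in replicate 1 and none in replicate 2. The MHSs of 236 and 421 bp in replicate 1 had their midpoints in AT1G05133, a long non-coding RNA gene annotated 1715 bp upstream, as did those of 181 and 447 bp in replicate 2. At the other end, a 722-bp MHS of replicate 1 overlapped MHSs of 446 and 392 bp in replicate 2, and a 150-bp MHS of replicate 2 just before had no partner. The coding sequence held no MHS midpoint in either library.

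RGA, found as a repressor of a gibberellin-deficient mutant and the closest relative of GAI, lies on the minus strand of chromosome 2 (255247 to 257568). It had 9 MHSs in replicate 1 and 8 in replicate 2, of which 5 and 6 overlapped. The largest was an upstream MHS of 644 bp in replicate 1, 1861 to 1218 bp before the TSS, with a 471-bp MHS of replicate 2 wholly inside it. A long non-coding RNA gene, AT2G04015, is annotated within it. The 447-bp MHS of replicate 1 over the TSS, from 284 bp upstream to base 163, was matched in replicate 2 by 2 MHSs on either side of the TSS, of 150 bp (248 to 99 bp upstream) and 138 bp (base 3 to 140). Its coding sequence had an MHS in replicate 2 only, of 181 bp (base 1761 to 1941). At and past the end of the gene, replicate 1 had 6 MHSs, of which 3 overlapped replicate 2. The MHSs farthest upstream, of 67 bp in replicate 1 and 94 bp in replicate 2, did not overlap.

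For both GAI and RGA, and also for RGL2, the central 300 bp of the longest upstream MHS found in both libraries are printed. They are shown because these were the largest shared open regions upstream of the DELLA genes.
GAI upstream, chr1:5147899-5148198, plus strand: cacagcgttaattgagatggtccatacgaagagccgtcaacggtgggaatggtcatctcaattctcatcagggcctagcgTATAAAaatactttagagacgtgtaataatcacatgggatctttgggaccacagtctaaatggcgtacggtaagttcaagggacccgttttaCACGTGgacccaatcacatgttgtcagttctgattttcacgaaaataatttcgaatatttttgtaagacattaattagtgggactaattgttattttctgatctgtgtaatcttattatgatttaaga
RGA upstream, chr2:258966-259265, minus strand: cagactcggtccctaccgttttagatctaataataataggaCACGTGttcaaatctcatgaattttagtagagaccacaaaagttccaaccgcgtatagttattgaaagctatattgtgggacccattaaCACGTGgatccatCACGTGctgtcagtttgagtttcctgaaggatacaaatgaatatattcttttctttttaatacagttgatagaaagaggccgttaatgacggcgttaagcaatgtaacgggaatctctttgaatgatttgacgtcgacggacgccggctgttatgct
RGL2 upstream, chr3:822587-822886, minus strand: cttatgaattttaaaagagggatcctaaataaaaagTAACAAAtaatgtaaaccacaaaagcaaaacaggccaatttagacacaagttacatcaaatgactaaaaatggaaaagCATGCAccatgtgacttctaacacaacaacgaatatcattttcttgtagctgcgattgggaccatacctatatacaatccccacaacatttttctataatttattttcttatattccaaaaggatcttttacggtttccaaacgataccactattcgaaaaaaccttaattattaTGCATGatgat

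The GAI stretch held 1 G-box, 911 to 906 bp upstream, and 1 TATA box, which 3.43% and 39.5% of genes hold at the same distance. The RGA stretch held 3 G-boxes, 1656 to 1651, 1567 to 1562 and 1554 to 1549 bp upstream. All 3 lay inside the annotated long non-coding RNA gene AT2G04015. At that distance 3.34% of genes hold at least 1. With GA2ox1, whose G-box lay outside its window, 3 of the 4 stretches of 300 bp thus held a G-box. Among all 14526 MHSs of replicate 1 that were at least 300 bp long and overlapped replicate 2, 13.9% held a G-box in their central 300 bp, and 0.282% held 3 or more. The RGL2 stretch held 1 gibberellin response element (15.0% of genes at that distance) and 2 RY cores, 1 of them on the reverse strand (12.0% of genes hold at least 1). The gibberellin response element was described in cereal seeds. In the same central 300 bp of long shared MHSs, 17.2% held TAACAAA and 11.0% held the RY core.

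Within the 1 kb before the TSS as a whole, the G-box was found in 1 of the 10 genes, GAI, while 14.8% of all promoters of that length held it. The IDD core was found in 8 of the 10, against 63.7% of all promoters. Its 15 matches fell inside an MHS in 9 cases in replicate 1 (60%) and in 1 case in replicate 2 (6.67%). Of the 28752 matches in all promoters, 31.4% lay inside an MHS of replicate 1 and 25.3% inside one of replicate 2. MHSs covered 31.7% of the bases of the 10 promoters in replicate 1 and 20.2% in replicate 2, so the share of matches stood above that of bases in replicate 1 and below it in replicate 2, over few matches. Of the bases of all promoters, MHSs covered 26.4% in replicate 1 and 21.0% in replicate 2. The gibberellin response element was found in 3 of the 10 and 46.7% of all promoters, the RY core in 4 and 32.2%, the W-box in 2 and 35.3%, and the evening element in 3 and 15.3%. No match to the telo-box (12.4% of all promoters) or the GAGA repeat (14.8%) was found in the 10, and the TATA box letters were found in all 10 (83.6% of all promoters).

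RGL1, a DELLA gene with the same conserved domains as GAI, lies on the plus strand of chromosome 1 (24748105 to 24750186) and had 7 MHSs in each library. The TSS was covered in both, by 317 bp from 126 bp upstream to base 191 in replicate 1 and by 168 bp from 88 bp upstream to base 80 in replicate 2, which had another MHS of 95 bp just after. Farther upstream, the MHSs of the libraries did not overlap: replicate 1 had 3, of 76, 74 and 89 bp, and replicate 2 had 1, of 84 bp. The 3 of replicate 1 were A/T-rich (79.8% to 81.1%), and the 1 of replicate 2 was not (60.7%). Past the stop codon both libraries had 2 further regions, with MHSs of 217 and 222 bp in replicate 1 and of 227, 132 and 156 bp in replicate 2. The shared 88 bp before the TSS are printed because, of the 5 stretches shared just before a covered TSS, only this one held the letters TATAAA. The match, on the reverse strand 71 to 66 bp upstream, is given in capitals. The 5 stretches differed in length, from 43 bp at GA20ox1 to 119 bp at RGL3. Of all genes, 23.6% hold those letters in the same 88 bp.
RGL1 core promoter, chr1:24748017-24748104, plus strand: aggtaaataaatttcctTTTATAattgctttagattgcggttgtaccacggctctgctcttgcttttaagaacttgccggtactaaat

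RGL2, the main DELLA repressor of seed germination, lies on the minus strand of chromosome 3 (819337 to 821652). It had 10 MHSs in replicate 1, of which 5 overlapped replicate 2, and 5 MHSs in replicate 2, which all overlapped replicate 1. The largest pair measured 511 bp in replicate 1, 1344 to 834 bp upstream, and 564 bp in replicate 2, with 503 bp shared. The far end of both MHSs reached into the neighbouring protein-coding gene AT3G03460, annotated 1243 bp upstream. Nearer the TSS the libraries parted. Replicate 1 had 4 MHSs there, of 76, 60, 156 and 122 bp, from 181 bp upstream to base 319, while replicate 2 had 1 of 151 bp, from 307 to 157 bp upstream. Only 25 bp were common to both, so the pair that counted for RGL2 within 200 bp upstream rests on them. The pair farthest upstream, of 265 bp in replicate 1 and 309 bp in replicate 2, had its midpoints in the neighbouring gene CYP89A9. The pair farthest downstream had its midpoints in AT3G03440. Past the coding sequence, replicate 1 also had MHSs of 128 and 76 bp without a partner.

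RGL3, which is also known to act in jasmonate responses, had 5 MHSs in each library on the minus strand of chromosome 5 (5763989 to 5766246), and 4 of each overlapped. It had the most even pair over the TSS among the DELLA genes, of 409 bp from 119 bp upstream to base 290 in replicate 1 and of 400 bp from 156 bp upstream to base 244 in replicate 2, with 363 bp shared. At the end of the gene, MHSs of 279 and 113 bp in replicate 1 overlapped MHSs of 275 and 88 bp in replicate 2. A 68-bp MHS of replicate 1 past the gene and a 116-bp MHS of replicate 2, 440 to 325 bp upstream, had no partner. Beyond 440 bp upstream neither library had an MHS in the window, and the neighbouring gene AT5G17500 begins 1132 bp from the TSS on that side. Of the bases covered in either library at RGL3, 67.4% were covered in both, the highest share of the 10, and at GA3ox2 the share was the lowest, 37.4%.

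**Figure D4:**
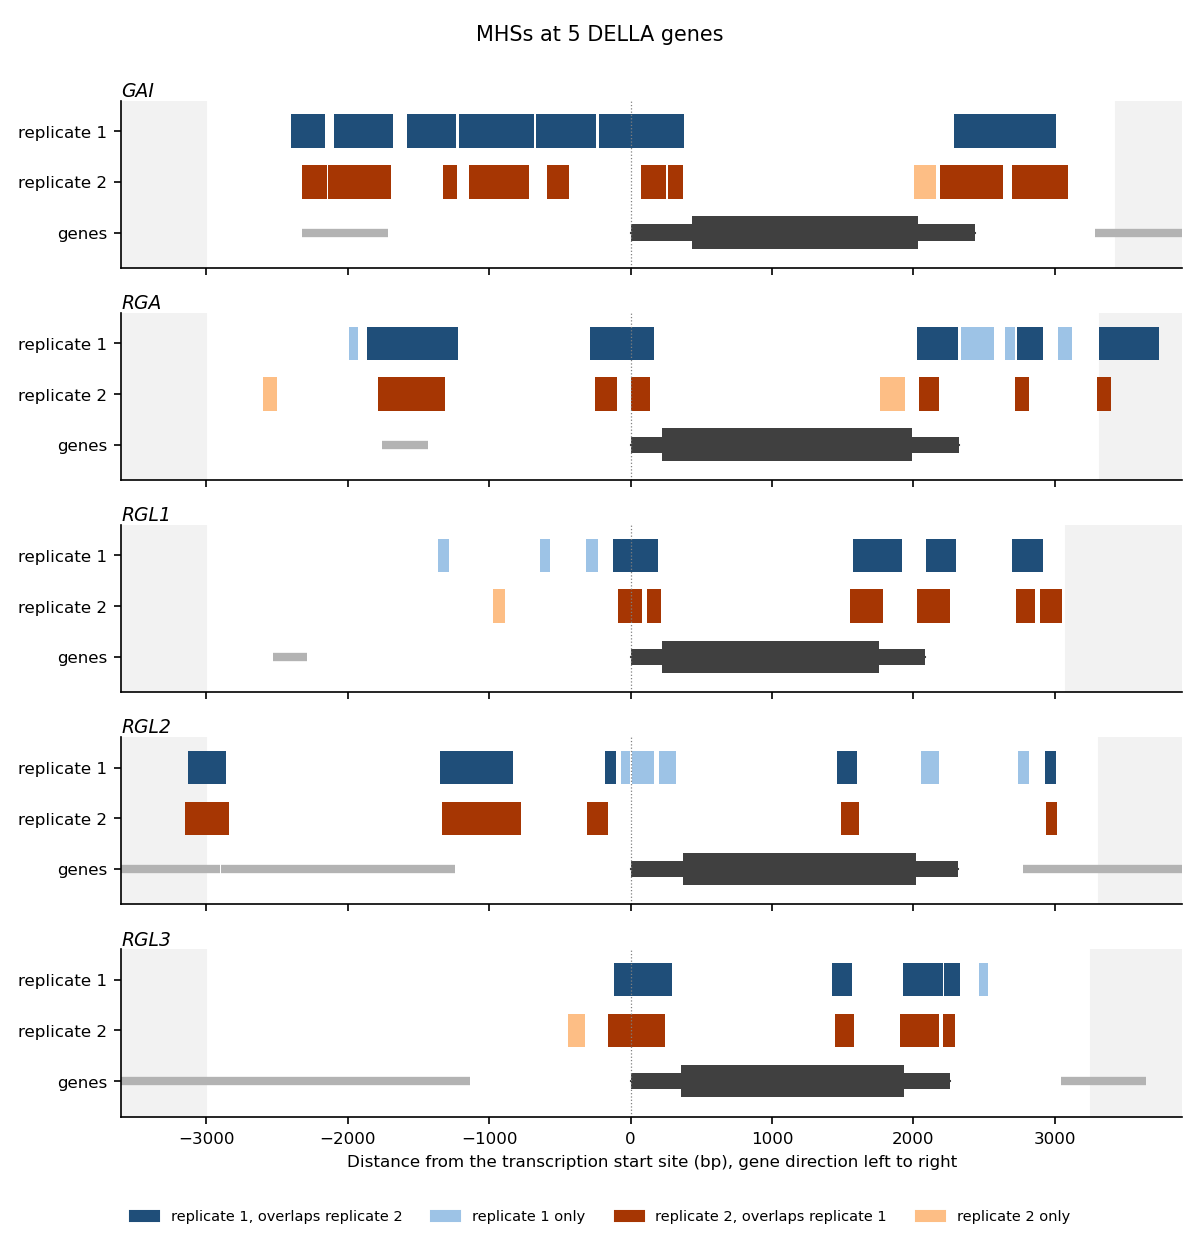
MHSs of replicate 1 (blue, upper row) and replicate 2 (orange, middle row) at the 5 DELLA genes, by distance from the TSS (bp), drawn as for the oxidase genes. GAI has an almost unbroken row of boxes before its TSS. RGL2 and RGL3 have dark boxes inside the coding sequence, and those of RGL1 run from it past the stop codon.

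The DELLA genes here have a single exon, and 3 of the 5 had a pair of MHSs in their coding sequence. Positions were therefore set side by side along the aligned coding sequences. In RGL2 the pair spanned coding bases 1084 to 1230 in replicate 1 and 1117 to 1240 in replicate 2. In RGL3 it spanned bases 1063 to 1206 in replicate 1 and 1086 to 1222 in replicate 2. When the sequences were aligned, these MHSs shared 81 aligned positions in replicate 1 and 68 in replicate 2. That was 55.1% of the RGL2 MHS and 56.25% of the RGL3 MHS in replicate 1, and 54.8% and 49.6% in replicate 2. In RGL1 the pair lay later, and its coding part spanned bases 1348 to 1536 in replicate 1 and 1330 to 1536 in replicate 2. Both MHSs ran on past the stop codon. Counted from the TSS, the coding sequence ends at base 1758, and the MHSs ended at base 1916 in replicate 1 and base 1781 in replicate 2. The MHS of RGA that only replicate 2 had, at coding bases 1537 to 1717, shared 163 aligned positions with that of RGL1. That was 90.1% of the RGA MHS and 78.7% of the coding part of the RGL1 MHS. GAI, whose coding sequence is 82.4% identical to that of RGA, had no MHS midpoint there, and a 3′ UTR MHS of replicate 2 reached 27 bp into it. The coding sequences of RGL2 and RGL3 are 77.2% identical. Their coding stretches common to both libraries are printed with capitals for the bases that are identical at aligned positions inside both stretches, 45 of 58.
RGL2 coding, chr3:820050-820163, minus strand: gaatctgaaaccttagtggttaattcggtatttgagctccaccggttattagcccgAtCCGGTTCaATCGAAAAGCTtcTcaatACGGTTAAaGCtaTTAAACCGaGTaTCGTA
RGL3 coding, chr5:5764682-5764802, minus strand: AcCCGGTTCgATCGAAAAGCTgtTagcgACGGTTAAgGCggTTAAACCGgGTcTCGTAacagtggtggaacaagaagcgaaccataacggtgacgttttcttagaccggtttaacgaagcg

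The MHSs in coding sequence had less A/T than those elsewhere, with a median of 56.5% over 5 in replicate 1 and 56.7% over 6 in replicate 2, against 69.2% over 39 and 63.6% over 30 for upstream MHSs. Reads that match more than 1 place could move signal between related genes, so repeated sequence was counted: of 27158 31-base words in the MHSs of the 10 genes, 3 occurred more than once in the genome, all in replicate 1 MHSs of GA3ox2. The words of both libraries were added up, so bases in both count once for each. Only exact repeats were counted, and shorter or inexact matches between related genes were not.

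Introns are present in the 5 oxidase genes, of which 3 (GA20ox1, GA3ox1 and GA3ox2) had a pair with both midpoints in an intron. Of all protein-coding genes with an intron, 5.86% had such a pair. At GA3ox1, the 439-bp MHS of replicate 1 also reached into coding sequence.

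Between the libraries, 52 of the 81 MHSs of replicate 1 overlapped replicate 2 (64.2%, exact binomial 95% interval 52.8% to 74.6%), and of all MHSs of replicate 1, 61.9% did. Seen from replicate 2, 60 of its 67 MHSs had a partner in replicate 1 (89.6%, 79.7% to 95.7%), and 86.9% of all MHSs of replicate 2 did. Both intervals thus include the share of all MHSs. They cover counting error only, and MHSs of 1 library are not independent of each other. The shares of oxidase and DELLA genes differed little: 62.8% of 43 and 65.8% of 38 in replicate 1, and 93.8% of 32 and 85.7% of 35 in replicate 2.

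By the study's account, the second library had a larger share of chloroplast reads and a higher background than the first. Reads were not analysed here, and the part of this in the differences between the libraries was not tested. Length went with overlap. The 29 MHSs of replicate 1 without a partner had a median of 78 bp (59 to 229 bp) and the 52 with a partner 284.5 bp (54 to 863 bp). Of the 26 MHSs of replicate 1 that were at most 100 bp long, 7 overlapped replicate 2 (26.9%), and of all such MHSs in the genome 26.2% did. Of the 55 above 100 bp, 45 did (81.8%), and 82.4% of all MHSs above 100 bp. The MHSs without a partner also had a higher median A/T content, 73.4% against 67.3% with one. MNase is known to prefer A/T-rich DNA, and its part in the MHSs of replicate 1 only was not tested. Replicate 2 had 7 MHSs without a partner, with a median of 108 bp and an A/T content of 60.7%, below the 64.8% of the 60 with one.

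**Figure D5:**
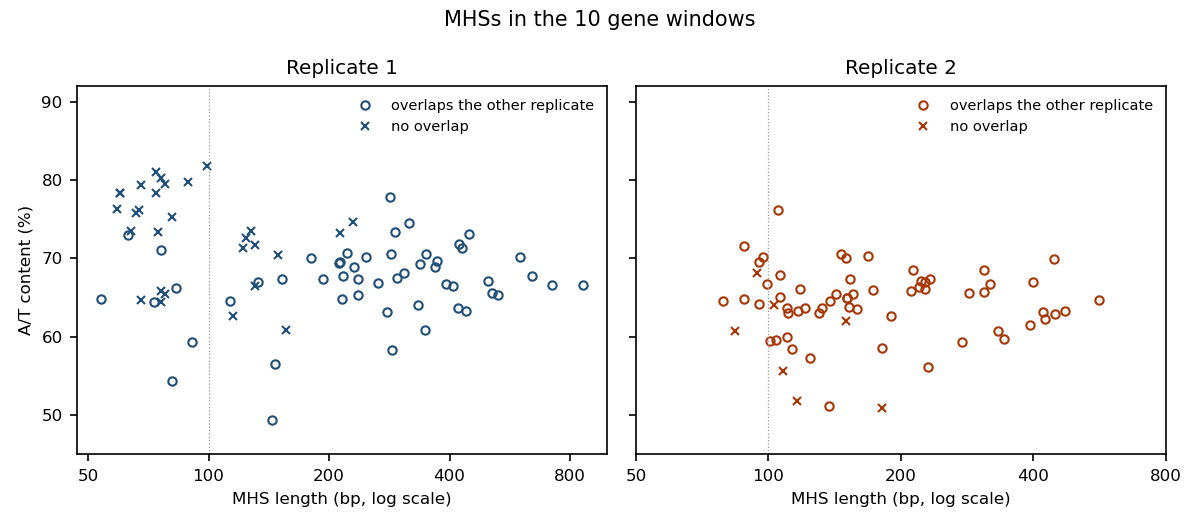
Length (x axis, bp, log scale) and A/T content (y axis, %) of the MHSs in the 10 windows, 81 in replicate 1 (left) and 67 in replicate 2 (right). Circles overlap the other replicate and crosses do not, and the dotted line marks 100 bp. In replicate 1, 19 of the 29 crosses lie at or below 100 bp, most of them above 70% A/T.

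Some MHSs of 1 library were nested in those of the other. Of the 67 MHSs of replicate 2, 26 lay wholly inside 1 MHS of replicate 1 (38.8%), against 25.2% of all MHSs of replicate 2. In the other direction it was 7 of 81 (8.64%), against 15.5% of all. An MHS of replicate 1 overlapped more than 1 of replicate 2 in 12 of 81 cases (14.8%, 7.64% of all), and the reverse held in 3 of 67 (4.48%, 11.1% of all).

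For context, 23 other genes of the gibberellin pathway were counted in the same way, from the enzymes of the early steps to the receptors and partners of the DELLA proteins. They had 154 MHSs in replicate 1 and 109 in replicate 2, with medians of 7 and 4 per gene. The window of GA3ox4 contains the gene GA3ox2, and 5 of its 7 MHSs in replicate 1 and 2 of its 3 in replicate 2 were also counted for GA3ox2. No other of the 23 shared an MHS with the 10. Of the 23, 14 had a pair within 1 kb upstream (60.9%, against 70.4% of all genes). Within 200 bp upstream 12 had one (52.2% against 58.2%), and within 1 kb downstream 15 did (65.2% against 43.9%). In coding sequence 4 had one (17.4% against 3.68%): CPS, GA3ox4, GA2ox2 and GA2ox4, named after their values were seen. Those with no pair within 1 kb upstream were KO, KAO1 and KAO2, which encode the oxidases of kaurene and kaurenoic acid, GA20ox4, GA3ox3, GA3ox4, GA2ox3, GA2ox7 and GA2ox8. All 10 oxidase and DELLA genes had one.

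The most MHSs of the 23 in replicate 1 were at GA2ox8, with 16 in replicate 1 and 8 in replicate 2, KO, with 10 and 6, and GA2ox6, with 9 and 12. GA2ox6 tied in replicate 1 with GID1B, GA2ox2 and GA20ox5, which also had 9, and was placed by its count in replicate 2. The fewest were at GA20ox4, with 1 in each, GA2ox7, with 2 in each, and KAO1, with 3 and 2, which tied in replicate 1 with KS and was placed in the same way. The gibberellin receptor gene GID1B, chosen after its values were seen, was the only one of the 33 pathway genes above GAI in covered bases in replicate 1, with 3592 bp, and it had 3055 bp in replicate 2. GA2ox6 had 3215 bp in replicate 1 and 2958 bp in replicate 2.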

How the data were processed

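Both libraries are of 1 group, and the label of the first gives no replicate number, so it is called replicate 1. Before deposit, the authors used Cutadapt for adapter trimming and Bowtie 2 for alignment to TAIR10. They discarded partial and poorly mapped alignments and ran Jazz on each library to call MHSs, for which no cut-off value is given in the sources used here. The deposited files hold start and end positions of each MHS and no score or count of reads, so the depth behind an MHS is unknown. Positions were read as 0-based starts, which the files do not state, and are printed 1-based. A different reading would move starts by 1 bp.

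Gene models were those of RefSeq for TAIR10.1, and the TSS was the annotated gene start. A window ran from 3000 bp upstream to 1000 bp past the gene. Overlap needed at least 1 bp. An MHS took the feature at its midpoint. A window can hold the MHSs of a neighbouring gene. Shares have exact binomial (Clopper-Pearson) intervals of 95%. Coding sequences were aligned globally with Biopython 1.88. Python 3.11.15, scipy 1.17.1 and matplotlib 3.10.9 were used, and overlap functions were tested on simulated intervals and by direct search, with 21 of 21 tests passed. No test between conditions was possible.

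All 10 genes are named with their MHSs. Of the other pathway genes, those with the 3 highest and 3 lowest counts in replicate 1, and those with no pair within 1 kb upstream, are named, with ties settled by the count in replicate 2 and then the gene identifier. Upstream sequences are of the upstream MHS longest in replicate 1 among those found in both libraries. Members, lists and motifs were chosen with earlier results of these data known. Alternatives changed the window, the overlap needed, the shortest MHS used, the merging of MHSs, the TSS and the libraries used.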

Additional observations from a re-analysis of the deposited data

How the results depend on the processing

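Of 46 alternative values, 42 stayed within 1.5 times a count or inside the interval of a share. The limit for counts is wide: the 81 MHSs of replicate 1 became 55 with those above 100 bp only, which is within it. The share of replicate 1 MHSs that overlapped replicate 2, 64.2%, became 50.6% when at least 50% of the MHS had to be covered, 40.7% when that held for both MHSs (reciprocal overlap) and 76.4% when the MHS and its partner both had to be above 100 bp. The share of replicate 2 MHSs that overlapped replicate 1, 89.6%, became 47.8% with the reciprocal overlap. With that overlap, 8 of the 10 genes had a pair within 1 kb upstream, 5 within 200 bp, 5 over the TSS and 5 in coding sequence. With MHSs above 100 bp only, the counts were 8, 6, 5 and 4. With 1 library left out, and so an MHS of the other sufficing, the counts ranged over 10 to 10 within 1 kb upstream, 7 to 9 within 200 bp, 5 to 7 over the TSS and 5 to 6 in coding sequence. The alternatives for the TSS and coding sequence were chosen after seeing the data. The count within 1 kb past the end of the transcript was not varied. No paired analysis was possible because there is 1 group. With positions only, strength of an MHS and its reads were not analysed here.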
